A study of Mus musculus with 14 samples.

Results

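Of the 44358 H3K36me3 peaks called in wild-type spermatocytes, 4336 (9.78%) lay on autosomes, were under 20000 bases wide, overlapped a peak of wild-type round spermatids by at least 1 base and lay over 5000 bases from every gene interval of the deposited gene table. They made up 11.3% of the 38391 spermatocyte peaks that were shared with round spermatids, and are called far peaks here. The cells came from testes of adult C57BL/6J mice and were sorted by flow cytometry (Hoechst and propidium iodide). They are spermatocytes at the pachytene and diplotene stages of meiotic prophase (PD) and haploid round spermatids (RS). ChIP-seq gave 1 peak list for each of 4 groups, PD Setd2KO, PD WT, RS Setd2KO and RS WT, and polyadenylated RNA was sequenced in 2 libraries of each group. Setd2KO is the genotype as the labels give it. The allele, any Cre driver and the number of mice behind a sample are not given in the sources used here, so the p-values below measure the spread between libraries, which may be technical. All coordinates are in build mm9.

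H3K36me3 is placed by the methyltransferase Setd2, which travels with elongating RNA polymerase II, and it therefore marks the bodies of transcribed genes, most heavily towards their 3′ ends. The mark is read by factors that act in DNA methylation, splicing and mismatch repair. Away from annotated genes it is also met over transcription units that an annotation does not hold, such as long noncoding RNAs, precursors of microRNAs or piRNAs, and extended gene ends. Male germ cells are known for many such transcripts.

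A set of the transcription units that RefSeq places in gaps with far peaks is shown first, because the finding below is that many gaps between deposited genes hold one. The promoters are those of 3 protein-coding genes that were not among the rows of the gene table used here and lie in gaps with 31, 18 and 17 far peaks. How far any of these genes lies from a far peak was not measured. Catspere1 encodes a CatSper channel-associated subunit, Ankrd31 a protein of meiotic recombination, and Dnah12 an axonemal dynein heavy chain. Sequences are from RefSeq, build GRCm38.p6, run from 250 bases before the gene's start to 50 after it, and read 5′ to 3′ on the gene's strand. Capitals mark TAACNG, a core of the motif bound by Myb proteins, on either strand.
Catspere1: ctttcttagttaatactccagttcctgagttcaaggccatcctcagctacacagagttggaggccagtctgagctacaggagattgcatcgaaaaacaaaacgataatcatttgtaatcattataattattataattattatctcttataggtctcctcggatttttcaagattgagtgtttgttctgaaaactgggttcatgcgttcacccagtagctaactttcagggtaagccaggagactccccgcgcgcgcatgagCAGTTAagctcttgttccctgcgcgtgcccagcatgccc
Ankrd31: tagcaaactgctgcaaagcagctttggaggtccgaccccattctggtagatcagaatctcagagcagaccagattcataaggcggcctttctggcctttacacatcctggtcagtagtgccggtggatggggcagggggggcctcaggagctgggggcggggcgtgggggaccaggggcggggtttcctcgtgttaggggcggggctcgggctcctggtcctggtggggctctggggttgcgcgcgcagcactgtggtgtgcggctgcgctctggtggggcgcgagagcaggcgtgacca
Dnah12: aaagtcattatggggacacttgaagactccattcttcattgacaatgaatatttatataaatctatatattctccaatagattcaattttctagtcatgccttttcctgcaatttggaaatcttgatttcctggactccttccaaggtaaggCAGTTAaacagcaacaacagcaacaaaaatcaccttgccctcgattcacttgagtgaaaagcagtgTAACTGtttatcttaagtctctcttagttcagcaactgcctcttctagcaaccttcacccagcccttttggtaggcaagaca
TAACNG occurred 1 time in the Catspere1 window, 2 times in the Dnah12 window and 0 times in the Ankrd31 window, and 23.3% of 32851 promoter windows of the same length held it. GGGCGG, searched on both strands, occurred 3 times in the Ankrd31 window and 0 times in the other two, and 35.7% of all windows held it. TATAAA, on both strands, occurred 2 times in the Dnah12 window and 0 times in the other two, and 13.6% of all windows held it. TGACGTCA, the cAMP response element, occurred in none of the 3 windows and in 1.79% of all. The Ankrd31 window held 17 CpG dinucleotides, the Catspere1 window 10 and the Dnah12 window 1, against a median of 7 over all windows. The 3 printed windows were chosen after their values were seen. Among other coding genes found in such gaps, the windows of Efcab13, Vwa3b, Fsip2 and Dcdc5 held TAACNG 0 times. That of Dnah14 held it 1 time and that of Ak9 2 times. No difference from the share over all windows was tested.

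MicroRNA genes lay in 68 of the 1247 gaps that hold far peaks and could be matched to RefSeq, together with 291 of the peaks. The mature sequences below come from the 4 such gaps with well-known clusters and at least 6 far peaks, with the seed, bases 2 to 8, in capitals. They are grouped by gap and, within it, by shared seed. MicroRNAs were not measured in the polyadenylated RNA libraries, so no level is given for them. MicroRNA genes were not counted in the gaps without far peaks, which were shorter, so no excess beside far peaks can be read from the 68.
mmu-miR-29a-3p: uAGCACCAucugaaaucgguua
mmu-miR-29b-3p: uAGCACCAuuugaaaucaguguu
mmu-miR-17-5p: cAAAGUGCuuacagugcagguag
mmu-miR-20a-5p: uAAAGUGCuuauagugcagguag
mmu-miR-18a-5p: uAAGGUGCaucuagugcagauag
mmu-miR-19a-3p: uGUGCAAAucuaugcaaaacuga
mmu-miR-19b-3p: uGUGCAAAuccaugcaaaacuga
mmu-miR-92a-3p: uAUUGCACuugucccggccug
mmu-miR-193b-3p: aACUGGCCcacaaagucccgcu
mmu-miR-365-3p: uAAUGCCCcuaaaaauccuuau
mmu-miR-15a-5p: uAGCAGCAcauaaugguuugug
mmu-miR-16-5p: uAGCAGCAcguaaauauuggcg
The miR-29 pair lies between Klf14 and Mkln1 on chromosome 6, a gap with 14 far peaks that cover 65708 bases. The miR-17 to miR-92 cluster lies between Slitrk5 and Gpc5 on chromosome 14, with 8 far peaks over 32056 bases. The miR-193b and miR-365 pair lies between Mkl2 and Parn on chromosome 16, with 9 far peaks over 26220 bases. The miR-15a and miR-16 pair lies between Kcnrg and Dleu7 on chromosome 14, with 6 far peaks over 31050 bases. These pairs and the cluster are known to be cut from longer primary transcripts, and members of a pair with 1 seed share their predicted targets. How far any of the peaks lies from a hairpin was not measured, since the sequences and the peaks are in different builds.

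Far peaks were narrower than shared peaks over genes and had lower scores. Their median width was 1989 bases, against 3095 bases for the 29958 shared peaks under 20000 bases that touched a gene interval and 2148 bases for the 2612 that lay within 5000 bases of one. The median peak score, which is the authors' own value and ranks peaks within a list only, was 152 for far peaks, 270 for gene-touching peaks and 152 for peaks within 5000 bases of a gene. Scores of at least 1000 were held by 267 far peaks (6.16%), against 3946 gene-touching peaks (13.2%). Scores under 60, just above the lowest listed score of 50, were held by 400 far peaks (9.23%) and 1634 gene-touching peaks (5.45%). Score and width were correlated across far peaks (Spearman's rho 0.87 over 4336 peaks of 1 list), while score and distance from genes had a rho of 0.05. These are descriptions of a single peak list, and the distance and width limits took part in choosing the peaks.

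**Figure D1:**
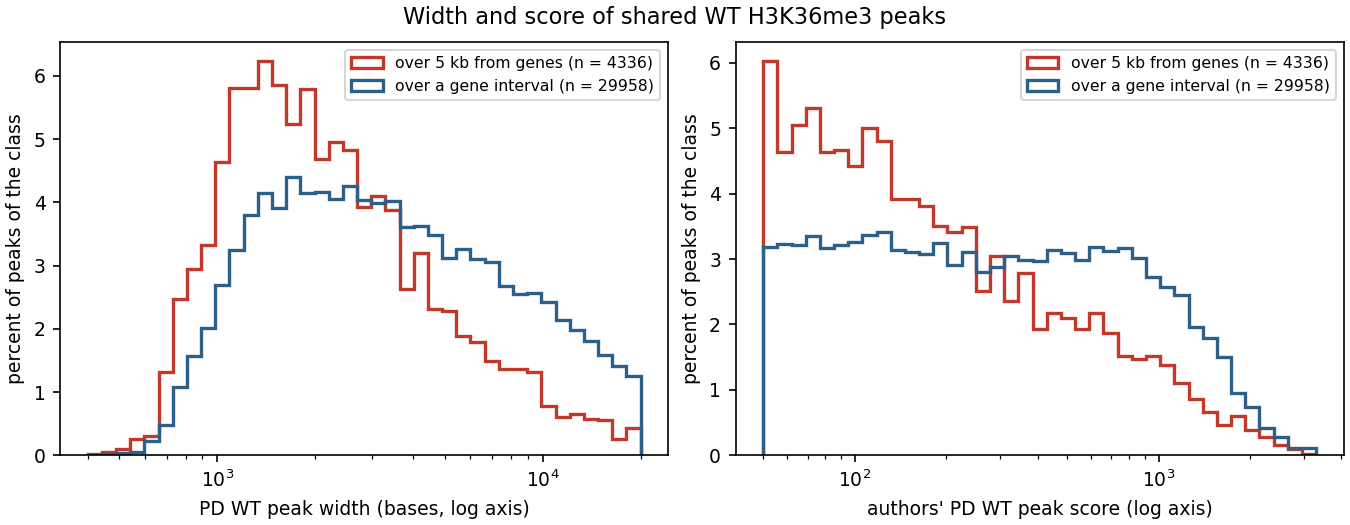
Percent of the peaks of each class (y axis) by PD WT peak width in bases and by the authors' PD WT peak score (x axes, both logarithmic), for 4336 far peaks (red) and 29958 shared peaks over a gene interval (blue). The far peaks sit to the left in both panels, with a median width of 1989 bases against 3095 bases and a median score of 152 against 270.

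The far peaks covered 13.1 megabases, 5.50% of the 238 megabases in the PD WT list. Their share of the shared peaks ranged from 7.71% on chromosome 19 to 14.4% on chromosome 10. The widest, at 19941 bases, lay at chr8:128072542-128092482 between Sipa1l2 and Map10, 55931 bases from Sipa1l2. Its PD WT score was only 67.2. Sipa1l2 was listed at 74.6 kb against 151.8 kb in RefSeq, and whether the peak lies inside the longer gene was not measured. The next widest, at 19802 bases, lay at chr14:27582353-27602154 between Pde12 and Asb14, in the gap where RefSeq places Dnah12. The others of the 8 widest were 19201 to 19785 bases wide, among them peaks in the gaps Shisa9 to Ercc4, Mctp2 to Rgma, Mtss1 to Sqle, Smo to Ahcyl2 and Zfp516 to Tshz1. Ahcyl2, 46204 bases from its peak, was listed at 52.7 kb for PD WT and RS WT but at 143.9 kb for PD Setd2KO and RS Setd2KO. The width limit kept out 45 shared peaks that were equally far from genes, of which the narrowest were 20093 and 20105 bases wide. At the distance limit, the closest far peaks lay 5004 bases beyond Txnl4a and 5012 bases beyond Ing2, and the closest peaks outside it lay 4995 bases from Ythdf3 and 4992 bases from Uqcrfs1.

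The 5 highest scores were 2779 to 3221. The highest belonged to chr13:49911452-49917945, 81815 bases beyond Iars, an isoleucyl-tRNA synthetase gene. The next was at chr19:40848096-40855805, 32003 bases beyond Entpd1, an ectonucleotidase gene. RefSeq places the coding gene Cc2d2b in the same gap, between Entpd1 and Ccnj. Another, at chr2:68404319-68414136, lay between Stk39, a kinase gene, and a gene known only by a clone name. The remaining ones, at chr8:28626902-28636154 and chr8:28714572-28723774, lay in the same gap beyond Poteg, 21257 and 108927 bases away. Poteg was listed at 47.5 kb against 135.1 kb in RefSeq, and whether either peak lies inside the longer gene was not measured. Poteg had 51.5 and 48.4 FPKM (fragments per kilobase and megaread) in the RS Setd2KO libraries, 35.4 and 42.5 FPKM in RS WT, 73.6 and 73.3 FPKM in PD Setd2KO and 73.1 and 60.1 FPKM in PD WT. The Poteg libraries of PD Setd2KO lay above both of PD WT by a narrow margin, and limma called no change with Setd2KO in PD (adjusted p = 0.48) or RS (adjusted p = 0.084). With upper-quartile scaling the RS difference of Poteg was called (limma, adjusted p = 0.017).

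Every far peak and every gene-touching peak compared here had to overlap an RS WT peak to be chosen, so their cover by the RS WT list is a description of peaks already picked for it. The median far peak was covered to 100% by RS WT peaks, 2207 (50.9%) lay wholly inside RS WT cover, against 15626 gene-touching peaks (52.2%), and 234 were covered to less than 50%. The 3472 RS WT peaks that touched a far peak had a median width of 3201 bases, and 901 of them touched at least 2 far peaks, up to 14. Of the 3472, 3185 (91.7%) were themselves over 5000 bases from genes and 103 also overlapped a gene interval. The scores that a far peak had in both lists had a Spearman's rho of 0.47 over 4336 peaks. Each cell type had 1 list, so no spread between ChIP replicates was available.

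Many far peaks lay close to each other, which was not compared with the spacing of other shared peaks. Joining far peaks with gaps of at most 10000 bases gave 1624 runs, and the 817 runs of at least 2 peaks held 3529 of them (81.4%). The 62 runs of at least 10 peaks held 982 peaks (22.6%), and 15 runs spanned at least 100 kb. With gaps of at most 5000 bases the runs of at least 10 peaks held 13.0% of far peaks, and with gaps of at most 20000 bases 28.0%, 2 settings chosen after seeing the data. In the runs of at least 10, PD WT peaks covered a median of 69.4% of the span and RS WT peaks 82.5%. RS WT cover was above PD WT cover in 55 of the 62 runs, with fewer RS WT than PD WT peaks in 52. The ends of each run were set by PD WT peaks, and whether ChIP depth took part in the number of peaks was not tested. These runs were also chosen for holding at least 10 PD WT peaks that each overlap an RS WT peak. That choice favours high RS WT cover and fewer RS WT peaks, so neither count compares the cell types.

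The run with the most peaks, 44, reached from chr4:91604158 to 91777031 between Elavl2 and Izumo3. It spanned 172.9 kb, the longest of all runs, and was covered to 59.97% by PD WT peaks and to 79.2% by 24 RS WT peaks. Elavl2, a neuronal RNA-binding protein gene 565411 bases away, had 0.90 and 0.66 FPKM in RS Setd2KO, 0.093 and 0.075 FPKM in RS WT, 0.23 and 0.29 FPKM in PD Setd2KO and 0.058 and 0.093 FPKM in PD WT. Izumo3, a gene of the sperm acrosome 33977 bases away, had 48.5 and 63.8 FPKM in RS Setd2KO, 73.1 and 64.4 FPKM in RS WT, 10.6 and 6.65 FPKM in PD Setd2KO and 3.89 and 4.46 FPKM in PD WT. Its RS libraries lay far above its PD libraries. No PD WT peak lay over Izumo3, and RS WT peaks covered its whole interval. In RS WT against PD WT Izumo3 was 3.75 ± 0.20 higher on the log2(FPKM + 1) scale (SE, limma, adjusted p = 1.1e-08).

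The second run, with 34 peaks over 162.4 kb, lay at chr15:63405394-63567814 between Myc and Gsdmc. This gap of 1786 kb held 70 far peaks in all, and RefSeq places the noncoding gene Pvt1 and others known by clone names in it. Their distance from the run was not measured. PD WT peaks covered 85.4% of the run and RS WT peaks 93.9%. Both flanking genes were near 0, at 0.133 FPKM or less in each of the 8 libraries, and neither had a WT peak. The third run, 31 peaks over 106.1 kb, lay at chr10:102563891-102670036 between Alx1 and Lrriq1, and RS WT peaks covered 97.9% of it with 8 peaks against 31 in PD WT. Lrriq1, a leucine-rich repeat and IQ motif gene 6996 bases away, had 26.0 and 24.7 FPKM in RS Setd2KO, 35.7 and 28.6 FPKM in RS WT, 15.3 and 15.0 FPKM in PD Setd2KO and 14.4 and 14.3 FPKM in PD WT. The interval of Lrriq1 was 21.9 kb in both WT tables, against 173.1 kb in both Setd2KO tables and 192.0 kb in RefSeq, so the lengths behind its FPKM values may differ between the genotypes.

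The fourth run, 29 peaks over 132.5 kb, lay at chr2:38649123-38781659 between Nr6a1 and Olfml2a. Nr6a1, an orphan nuclear receptor known from germ cells, was listed at 61.1 kb in all 4 tables and has 203.1 kb in RefSeq, where the gap to Olfml2a is 5.52 kb in place of 147.5 kb. Nr6a1 had 36.9 and 41.1 FPKM in RS Setd2KO, 33.2 and 34.0 FPKM in RS WT, 10.9 and 9.53 FPKM in PD Setd2KO and 7.88 and 9.66 FPKM in PD WT. RS WT was 1.83 ± 0.14 above PD WT in log2(FPKM + 1) (SE, limma, adjusted p = 2.0e-07), and neither Setd2KO contrast was called (adjusted p = 0.28 in PD and 0.26 in RS), although that of Nr6a1 in RS was called with upper-quartile scaling (adjusted p = 0.020). The fifth run, 29 peaks over 119.3 kb, lay at chr18:29540536-29659875 between Celf4 and Pik3c3, 772674 bases from Pik3c3. RefSeq places 15 long noncoding RNA genes in this gap of 4520 kb, and their distance from the run was not measured. Of the 5 runs, only that between Nr6a1 and Olfml2a was touched by a Setd2KO peak, 1 of the RS list.

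**Figure D2:**
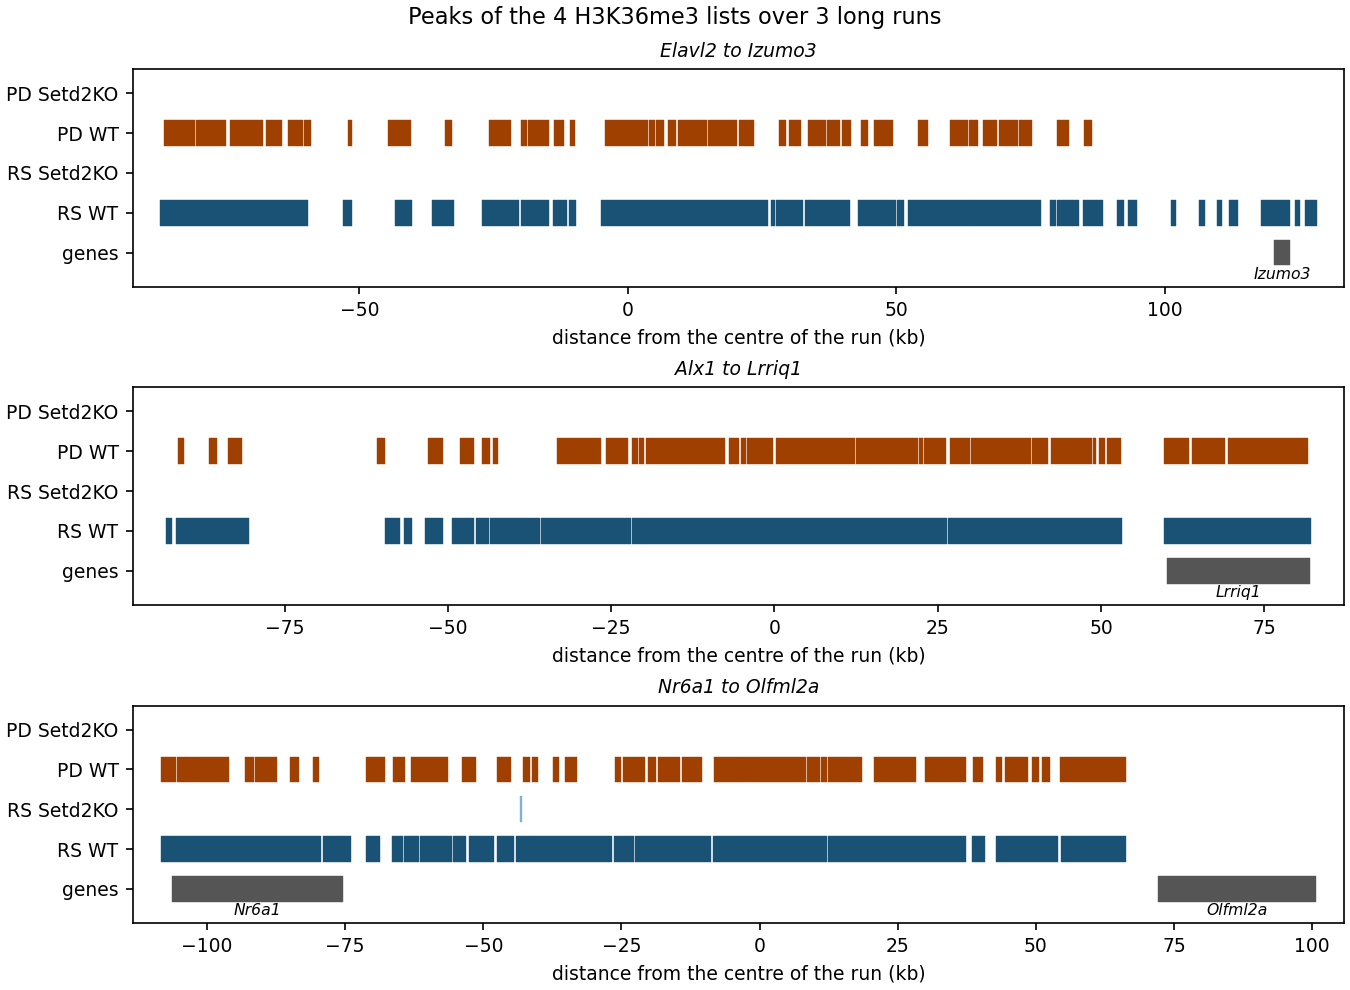
Peaks of the 4 H3K36me3 lists (rows; PD Setd2KO above PD WT, RS Setd2KO above RS WT) and deposited PD WT gene intervals (grey) over 3 of the runs with the most far peaks, by distance from the centre of the run in kb (x axis). Bars are drawn to scale and end at the edges of the region shown, so the Nr6a1 interval is shown in part. The WT rows are filled along the runs and the Setd2KO rows hold 1 RS peak. Lrriq1 and Nr6a1 are longer in RefSeq, where the gaps from Alx1 to Lrriq1 and from Nr6a1 to Olfml2a are 14.8 kb and 5.52 kb.

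The 8 farthest far peaks were 1431069 to 1849849 bases from the nearest gene and lay in 2 gaps. In the gap between Pcdh7, a protocadherin gene, and G6pd2, an autosomal copy of the glucose-6-phosphate dehydrogenase gene, lay 3 of them, the farthest at chr5:60348018-60350232 with a width of 2215 bases. The other 5 lay between Zeb2, a zinc finger repressor gene, and Acvr2a, an activin receptor gene, between chr2:47209007 and 47227029. Their widths were 692 to 3558 bases, and RS WT peaks covered 94.2% or more of each. G6pd2 had 10.2 and 17.3 FPKM in RS Setd2KO, 20.8 and 20.0 FPKM in RS WT, 1.56 and 1.07 FPKM in PD Setd2KO and 0.28 and 0.45 FPKM in PD WT, with no peak over its interval in either WT list. Its RS WT libraries lay above both RS Setd2KO libraries, and its PD Setd2KO libraries above both of PD WT. Zeb2 and Pcdh7 were below 1 FPKM in all 8 libraries.

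Setd2KO peaks were almost absent from the far peaks. The PD Setd2KO list held 1152 peaks and the RS Setd2KO list 3692, against 44358 and 34499 in PD WT and RS WT. A PD Setd2KO peak touched 7 of 4336 far peaks (0.161%, exact 95% binomial interval 0.0649% to 0.332%), and over all shared peaks the share was 0.154% (59 of 38391). An RS Setd2KO peak touched 19 far peaks (0.438%, interval 0.264% to 0.683%), and over all shared peaks the share was 0.669% (257 of 38391). Gene-touching peaks were touched in 0.130% of cases in PD and 0.584% in RS, both inside the far peaks' intervals, so by number of peaks touched the far peaks stood near the background in both cell types. The intervals cover counting error only, and neighbouring peaks are not independent. Setd2KO peaks covered 4507 bases of far peaks in PD and 4955 bases in RS. By bases the far peaks stood above the background, with 0.0344% under PD Setd2KO peaks, against 0.0193% for gene-touching peaks and 0.0199% for all shared peaks. Under RS Setd2KO peaks were 0.0378% of far peak bases, against 0.0214% for gene-touching peaks and 0.0228% for all shared peaks. These base shares rest on the 7 and 19 far peaks above and were not tested.

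Only 1 far peak was touched in both Setd2KO lists, at chr9:123832938-123834503 between the chemokine receptor genes Xcr1 and Ccr1. PD Setd2KO peaks covered 673 of its 1566 bases and RS Setd2KO peaks 1080. Another far peak of the same gap, at chr9:123842870-123844895, had the most bases under RS Setd2KO peaks of all, 1143, and none under PD Setd2KO peaks. Xcr1 and Ccr1 were at 0.086 FPKM or less in each library, and Ccr1 was listed at 0 in all 4 PD libraries. In PD the longest Setd2KO cover, 936 bases, lay in a peak of 12178 bases at chr12:16605717-16617894, 9140 bases from Lpin1, a phosphatidate phosphatase gene. The other PD peaks with the most Setd2KO cover lay 20889 to 22621 bases from Vstm2b, Psd3 and Unc5a and had 572 to 607 bases under it. In RS the next peaks after the Xcr1 to Ccr1 pair had 202 to 215 bases under Setd2KO peaks, near Cfap61, Col25a1 and Abcc12.

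Setd2 itself was not lower in RNA of the libraries labelled Setd2KO. It had 21.0 and 21.4 FPKM in PD Setd2KO against 21.2 and 19.1 FPKM in PD WT, and 12.1 and 8.67 FPKM in RS Setd2KO against 5.24 and 5.58 FPKM in RS WT. The PD libraries overlapped (adjusted p = 0.74, limma), and in RS both Setd2KO libraries lay above both WT libraries, by 0.81 ± 0.15 in log2(FPKM + 1) (SE, adjusted p = 0.0016). A value for the whole gene cannot show the loss of single exons, and which were deleted is not given in the sources used here, so the RNA does not check the label.

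The gaps between deposited genes that hold far peaks often hold other genes in RefSeq. The 4336 peaks lay in 1264 gaps, of which 1247, with 4298 peaks, could be matched to RefSeq through the symbols of both flanking genes, without any conversion of coordinates. In 83 gaps with 497 peaks (11.5% of far peaks), the RefSeq gap was shorter than the summed width of the peaks, as in the gaps of Lrriq1 and Nr6a1 above. In 105 further gaps with 700 peaks (16.1%), RefSeq places a protein-coding gene that was not among the rows used here. In 651 gaps with 2163 peaks (49.9%) it places a long noncoding RNA gene and no such coding gene. Other entries only, such as pseudogenes, were in 157 gaps with 443 peaks, and nothing was in 251 gaps with 495 peaks (11.4%). Where in a gap the RefSeq genes lie relative to the far peaks was not measured.

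Gaps with far peaks were also longer than gaps without, so the shares were set side by side within length classes. Among gaps of 50 to 200 kb, RefSeq places a coding gene outside the deposited rows in 8.28% of 483 gaps with far peaks, against 4.73% of 2641 gaps without. Long noncoding RNA genes were in 58.4% of those with far peaks, against 44.6% of those without, and the RefSeq gap was under 50% of the deposited length in 15.9%, against 5.91%. Among gaps of 10 to 50 kb, the shares with a coding gene were 3.54% of 367 with far peaks and 1.65% of 6376 without, and those with a long noncoding RNA gene 24.8% and 13.4%. Among gaps over 200 kb they were 13.4% of 396 and 8.56% of 1121 for coding genes, and 86.9% and 76.7% for long noncoding RNA genes. For gaps over 200 kb, a RefSeq gap under 50% of the deposited length was found in 7.58% with far peaks and 7.05% without. Within each length class the gaps with far peaks had a higher median length than those without, 508.5 kb against 400.3 kb in the class over 200 kb, so length was not fully matched.

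**Figure D3:**
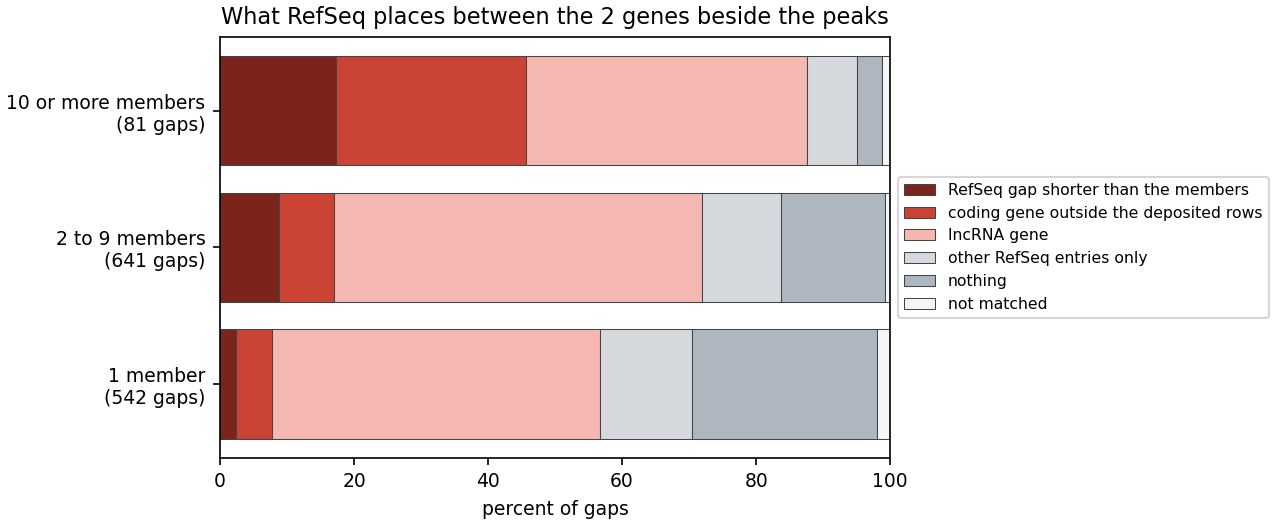
Percent of gaps (x axis) by what RefSeq places between the 2 deposited genes beside the far peaks, for gaps with 10 or more, 2 to 9 and 1 far peak (rows). Gaps that RefSeq makes shorter than the summed width of their peaks and gaps with a coding gene outside the deposited rows make up 17.3% and 28.4% of the 81 gaps with 10 or more peaks, 8.74% and 8.27% of the 641 with 2 to 9, and 2.40% and 5.35% of the 542 with 1. The summed width grows with the number of peaks, so the shares of the first class cannot be compared between rows. Gap length was not matched between the rows either.

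Several of the coding genes found this way are known from cilia, flagella and meiosis. The gap between Itgb3 and Efcab3, with 53 far peaks, holds Efcab13, an EF-hand protein gene. The gap between Adss and a gene known by a model number, with 31 far peaks, holds Catspere1, shown above. Cfap54, a gene of the ciliary and flagellar central apparatus, lies between Nedd1 and Cdk17 with 24 far peaks, and Vwa3b, a von Willebrand factor A domain gene, lies between Tmem131 and Cnga3 with 21. Shoc1, which acts in meiotic crossover formation, lies between Gng10 and Ugcg with 22. Dnah12 lies between Pde12 and Asb14 with 17 far peaks, Fsip2, a fibrous sheath protein gene, between Zfp804a and Zc3h15 with 14, and Dnah14 between Ccdc121 and Lbr with 11. The RNA of these genes was not analysed here, and no theme is tested by this list.

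The flanking genes of the gaps that hold Efcab13 and Shoc1 did not share 1 pattern, and those of the other gaps are not described here. Itgb3, an integrin gene, was at 0.39 FPKM or less in all 8 libraries. Efcab3 had 68.2 and 85.6 FPKM in RS Setd2KO, 84.0 and 90.2 FPKM in RS WT, 12.5 and 6.44 FPKM in PD Setd2KO and 5.30 and 6.73 FPKM in PD WT, and was 3.66 ± 0.24 higher in RS WT than in PD WT in log2(FPKM + 1) (SE, limma, adjusted p = 5.7e-08). Gng10, a G protein gamma subunit gene and the nearest gene of 12 far peaks, had 8.35 and 8.31 FPKM in PD Setd2KO against 12.9 and 18.4 FPKM in PD WT. Both PD Setd2KO libraries of Gng10 lay below both of PD WT, by 0.81 ± 0.16 (SE, limma, adjusted p = 0.0029). Ugcg, the glucosylceramide synthase gene on the other side, had 4.56 and 3.42 FPKM in RS Setd2KO against 1.07 and 1.57 FPKM in RS WT, a rise of 1.10 ± 0.15 (SE, limma, adjusted p = 0.00021).

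Flanking genes were listed shorter than in RefSeq more often than genes in general. RefSeq length was over 2 times the deposited length for 207 of 2348 matched flanking genes (8.82%), against 970 of 19622 matched autosomal genes (4.94%), a group that includes the flanking genes. Besides Lrriq1 and Nr6a1, Cfap61, a radial spoke protein gene of the flagellum, had 29.4 kb in the tables and 280.3 kb in RefSeq, with 28 far peaks beside it. Spef2, a sperm flagellar protein gene, had 44.6 kb and 170.7 kb, with 24 far peaks beside it. Efcab3 had 25.3 kb and 108.6 kb, with 53 far peaks beside it. Acbd6, an acyl-CoA binding protein gene, was listed at 14.2 kb in the PD WT table and at 129.1 kb in each of the other 3, with 14 far peaks beside it. Intervals differed between the tables for 1056 of 20626 genes. Measured against the gene intervals of all 4 tables together, 153 far peaks lay inside an interval and 11 within 5000 bases of one, which left 4172.

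Genes nearest to far peaks were more often expressed than genes in general. Of 1451 distinct nearest genes, 64.8% averaged 1 FPKM or more in RS WT and 68.6% in PD WT, against 46.1% and 45.8% of all 19725 autosomal genes. The share fell with distance. In PD WT it was 83.2% of the 638 genes nearest to peaks 5 to 10 kb away and 43.0% of the 107 genes nearest to peaks over 200 kb away, and the median level was 6.84 FPKM and 0.50 FPKM. A peak of the PD WT list overlapped the gene itself for 83.5% of the nearest genes at 5 to 10 kb and 43.0% at over 200 kb, against 46.4% of all autosomal genes. Of the far peaks, 1901 (43.8%) lay beyond the 3′ end of the nearest gene and 2435 before its 5′ end, and at 5 to 10 kb the share beyond the 3′ end was 48.2%. A gene can be nearest to peaks of several distance classes.

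**Figure D4:**
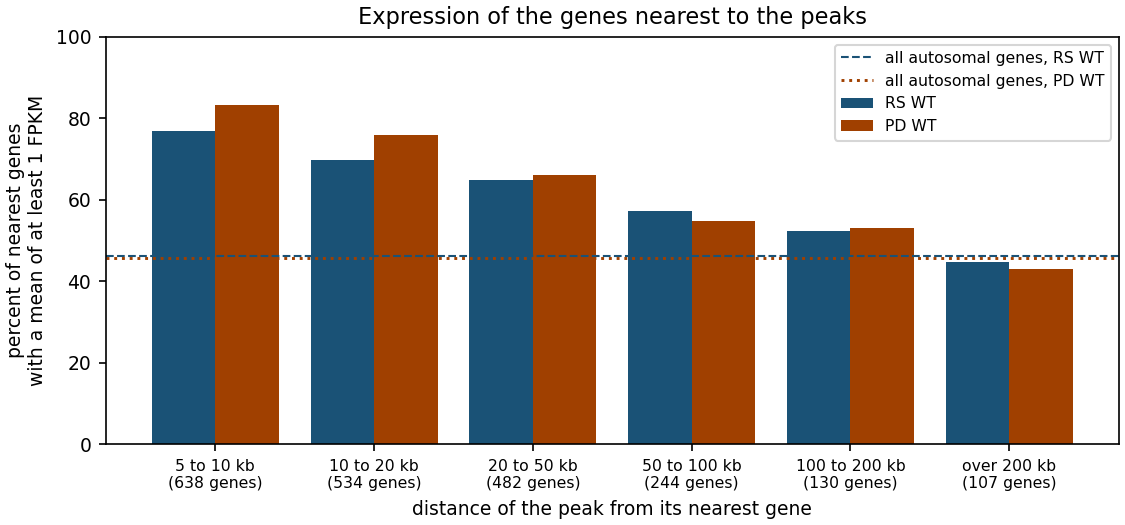
Percent of the distinct genes nearest to far peaks that had a mean of at least 1 FPKM (y axis) in RS WT (blue) and PD WT (brown), by the distance of the peak from the gene (x axis), with the share of all autosomal genes as dashed and dotted lines. The bars stand at 76.8% and 83.2% at 5 to 10 kb and at 44.9% and 43.0% at over 200 kb, where they lie at the lines of 46.1% and 45.8%.

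Changes of the nearest genes with Setd2KO were about as frequent as those of all genes. Of the 1451 nearest genes, 1113 passed the filter of a mean of 1 FPKM in at least 1 group and were tested with limma among 11452 genes. In PD Setd2KO against PD WT, 325 nearest genes were higher and 57 lower at an adjusted p under 0.05 (29.2% and 5.12%), beside 29.8% higher and 6.30% lower among all genes tested. Their median change was 0.20 in log2(FPKM + 1), beside 0.19 for all genes. With quantile normalization, which set the all-gene median to 0.00, 148 were higher and 160 lower, so the split in PD depended on the scaling. In RS Setd2KO against RS WT, 255 were higher and 202 lower (22.9% and 18.1%), beside 20.9% and 21.8% of all genes, with medians of 0.05 and 0.02. With upper-quartile scaling 418 were higher and 170 lower in RS, where the all-gene median was 0.13. Counts in PD fell to 168 higher and 30 lower without the first PD Setd2KO library and to 188 and 34 without the second, and those in RS to 145 and 116 without the first RS Setd2KO library and to 124 and 124 without the first RS WT library. On the deposited scale the shares over all libraries lie near the background in both contrasts, and no test of the nearest genes as a group was made.

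Between the cell types, 324 nearest genes were higher and 567 lower in RS WT than in PD WT (29.1% and 50.9%), beside 36% higher and 46.7% lower among all genes tested. Their median change was −0.34, beside −0.21 for all genes. The Setd2KO effects in RS and PD differed for some nearest genes, with the effect in RS higher for 93 and lower for 282 (8.36% and 25.3%), beside 7.76% and 27.3% of all genes. With quantile normalization it was higher for 236 and lower for 181, so this split depended on the scaling too. In bulk samples a lower level in each cell cannot be told apart from fewer cells of a type.

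In PD, the nearest genes that rose most include genes of spermatids. Sun5, which anchors the sperm head to the tail, had 7.33 and 4.77 FPKM in PD Setd2KO against 1.504 and 2.29 FPKM in PD WT, and 5 far peaks from 8792 bases beyond its end. Zp3r, an acrosomal protein gene, had 11.7 and 7.10 FPKM in PD Setd2KO against 2.69 and 4.05 FPKM in PD WT. Both PD Setd2KO libraries lay above both PD WT libraries for each, by 1.27 ± 0.24 for Sun5 (SE, limma, adjusted p = 0.0024) and 1.23 ± 0.25 for Zp3r (adjusted p = 0.0035). Dnajc5b, a J-domain protein gene, rose by 1.64 ± 0.26 (adjusted p = 0.0011) and Adgb, the androglobin gene, by 1.55 ± 0.17 (adjusted p = 0.00019). All 4 had 38.9 to 153.3 FPKM in the RS libraries. Of 9 round spermatid markers, 7 were higher and 1 lower in PD Setd2KO, none was at 0, and their summed level was 173.4 and 103.0 FPKM in PD Setd2KO against 101.6 and 108.5 FPKM in PD WT. Prm1 and Tnp1 led the PD WT sum and went the other way from the 7. Prm1 had 29.3 and 20.4 FPKM in PD Setd2KO against 43.6 and 43.0 FPKM in PD WT, and Tnp1 31.5 and 20.6 FPKM against 37.1 and 35.2 FPKM. The overlap of the sums therefore does not describe the 7 markers that rose. Spermatogonia markers summed to 6.27 and 7.54 FPKM in PD Setd2KO against 2.79 and 2.50 FPKM in PD WT. Of 4 tested, 2 were higher and 0 lower, and with quantile normalization 1 was higher and 1 lower. For Leydig, spermatocyte, and erythrocyte and endothelium markers both PD Setd2KO sums also lay above both PD WT sums. The sums of peritubular myoid, Sertoli and macrophage markers overlapped. The part of any of these cells in the PD rises was not tested.

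The largest fall in PD was that of Arc, a gene of activity-dependent signalling in neurons, 10346 bases from 1 far peak. It had 10.3 and 9.93 FPKM in PD Setd2KO against 41.7 and 59.7 FPKM in PD WT, with the groups far apart, a change of −2.20 ± 0.18 (SE, limma, adjusted p = 3.9e-05). In RS, Arc had 38.3 and 39.3 FPKM in Setd2KO and 66.8 and 80.5 FPKM in WT, so Setd2KO was the lower group there too. The other named genes that fell in PD fell by 0.80 to 0.97. These were Ggt7, Comp, Ckap4, Rhcg, Gng10, Cyp2d26 and Prm1, with limma adjusted p of 0.0004 for Ggt7 and 0.00099 for Comp, and 0.0060 for Prm1. Prm1 was no longer called in PD without the second PD Setd2KO library (adjusted p = 0.11).

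In RS, the nearest genes that rose most include Cd24a, a surface glycoprotein gene with 4 far peaks, and Fgf12, an intracellular fibroblast growth factor homologue with 2. Cd24a had 16.6 and 16.6 FPKM in RS Setd2KO against 1.61 and 1.38 FPKM in RS WT, and 3.38 and 2.82 FPKM in PD Setd2KO against 0.36 and 0.52 FPKM in PD WT. Its Setd2KO libraries lay above the WT libraries in both cell types, and the rise in RS was 2.82 ± 0.12 (SE, limma, adjusted p = 3.1e-07). Fgf12 had 6.53 and 6.04 FPKM in RS Setd2KO against 0.68 and 0.64 FPKM in RS WT, a rise of 2.13 ± 0.09 (adjusted p = 3.1e-07). Gsn, an actin-severing protein gene, Ndc80, a kinetochore gene, and Insig2, a regulator of sterol synthesis, rose by 1.68, 1.65 and 1.34. Zfp800, Nmd3, an adaptor of ribosomal subunit export, and Rnf6, a ubiquitin ligase gene, rose by 1.09 to 1.20. The deposited intervals of Gsn differ between tables. Peritubular myoid markers rose in the same contrast, 3 of 3 tested and with a sum of 10.2 and 9.27 FPKM in RS Setd2KO against 2.15 and 3.22 FPKM in RS WT, and none of the 4 was at 0. Sertoli markers summed to 1.46 and 1.31 FPKM in RS Setd2KO against 0.44 and 0.82 FPKM in RS WT, and macrophage markers to 1.36 and 1.10 FPKM against 0.58 and 0.71 FPKM. Both RS Setd2KO sums lay above both RS WT sums for each, although none of these markers reached the level needed for a test. Leydig markers summed to 9.37 and 13.4 FPKM in RS Setd2KO against 8.63 and 4.27 FPKM in RS WT, and 1 of 3 tested, Insl3, was called higher (limma, adjusted p = 0.041). Erythrocyte and endothelium markers overlapped, at 1.36 and 1.66 FPKM in RS Setd2KO against 0.95 and 1.63 FPKM in RS WT.

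Spermatocyte markers were also higher in RS Setd2KO in part. Of 9 tested, 4 were higher and 1 lower, and all 10 markers summed to 410.0 and 374.9 FPKM in RS Setd2KO against 331.6 and 295.0 FPKM in RS WT, with none at 0. The called rises were those of Mybl1, Hormad1 and Sycp3, the last 2 genes of the meiotic chromosome axis, by 1.42, 1.30 and 1.13, and of Ccna1, a cyclin gene, by 0.71, and Spo11, which makes meiotic DNA breaks, fell by 0.46. Insig2 and Ndc80 had lower levels in RS WT than in PD WT, with 3.13 and 4.97 FPKM in RS WT against 10.3 and 7.84 FPKM in PD WT for Insig2, and 4.44 and 3.98 FPKM against 13.6 and 15.9 FPKM for Ndc80. Spermatogonia markers summed to 5.47 and 5.81 FPKM in RS Setd2KO against 3.71 and 4.80 FPKM in RS WT, with 2 of 4 tested higher and 1 lower. The part of any of these cells in the RS changes was not tested.

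The nearest genes that fell most in RS were Prm1 and Tnp1, the genes of protamine 1 and transition protein 1, which replace histones in the sperm nucleus. Prm1 had 237.7 and 218.9 FPKM in RS Setd2KO against 941.4 and 912.2 FPKM in RS WT, and Tnp1 302.3 and 282.8 FPKM against 1067 and 948.1 FPKM. The groups did not overlap for either, with changes of −2.02 ± 0.18 for Prm1 (SE, limma, adjusted p = 1.2e-05) and −1.78 ± 0.19 for Tnp1 (adjusted p = 4.6e-05). Prm1 was nearest to 1 far peak 7393 bases before its start, and Tnp1 to 9, the closest of them 120023 bases before its start. Pigg, which acts on GPI anchors, had 2.36 and 2.80 FPKM in RS Setd2KO against 10.0 and 8.39 FPKM in RS WT, a fall that limma called at an adjusted p of 6.3e-06. Dlgap4, Ccdc91 and Abhd16b fell by 1.33 to 1.44. Prm1 and Tnp1 are also among the 9 round spermatid markers, of which 0 were higher and 3 lower in RS Setd2KO, with a median change of −0.46. Izumo1 was the third, at −0.81 (limma, adjusted p = 0.013), and Spaca1, of the acrosome, changed least of the list, at −0.07 (adjusted p = 0.86). The markers summed to 1254 and 1431 FPKM in RS Setd2KO against 3147 and 2904 FPKM in RS WT, a sum that Prm1 and Tnp1 lead, and its part in the falls was not tested.

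**Figure D5:**
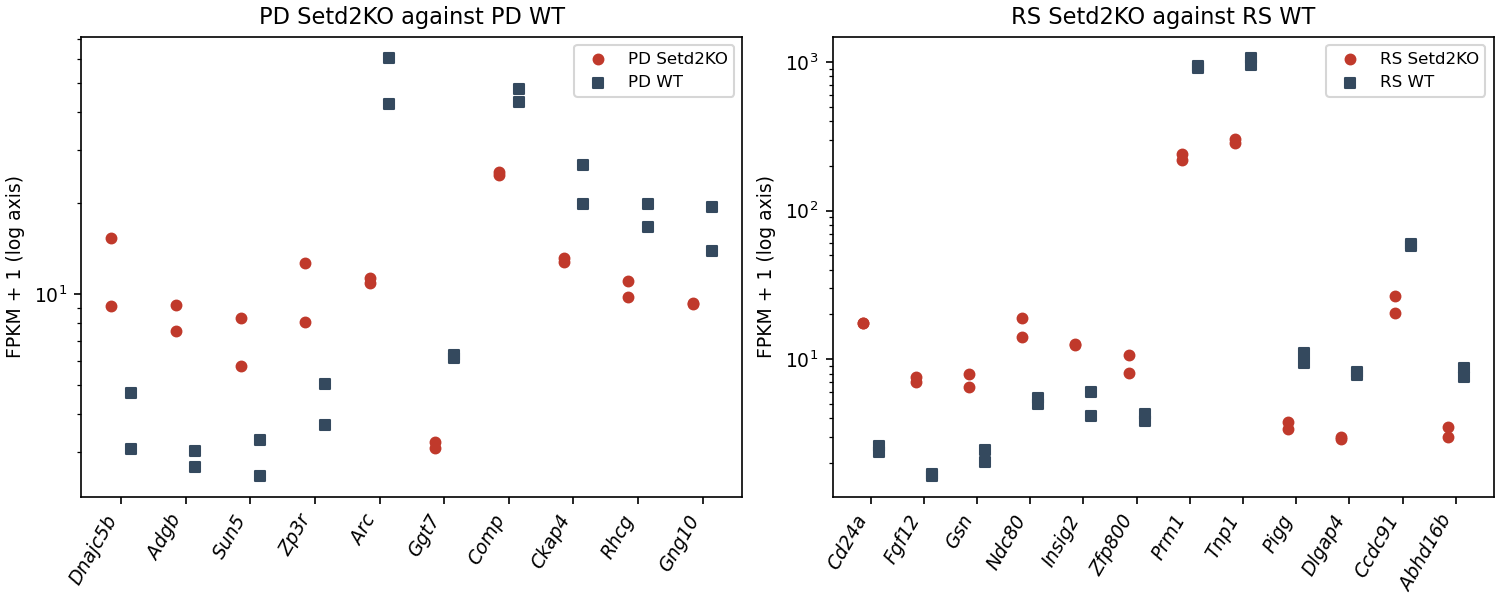
FPKM + 1 (y axis, logarithmic) of each library for up to 6 named nearest genes per direction in PD Setd2KO (red circles) against PD WT (dark squares), left, and in RS Setd2KO against RS WT, right. For each gene shown the 2 Setd2KO libraries and the 2 WT libraries do not overlap, which the choice of named genes required.

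Between the cell types the nearest genes with the largest rises in RS WT include Tex29, Sun5 and Tmigd3, by 5.22 ± 0.19, 5.07 ± 0.24 and 5.01 ± 0.18 in log2(FPKM + 1) (SE, limma). Tex29, a testis-expressed gene, had 96.4 and 92.6 FPKM in RS WT against 1.44 and 1.70 FPKM in PD WT. Tmigd3, nearest to 7 far peaks, overlaps the deposited interval of Adora3 on the same strand, so reads could be shared between them. The largest falls include those of Tex101, a germ cell surface protein gene, Piwil1, the Argonaute of pachytene piRNAs, Kcnk10, a potassium channel gene, and Cers3, a ceramide synthase gene. They fell by 4.23 to 4.47. Piwil1 had 6.33 and 7.58 FPKM in RS WT against 186.0 and 147.7 FPKM in PD WT, and 1 far peak lay 22290 bases before its start.

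Further lists of genes tied to such transcription were followed, of which the first are the piRNA genes. The calls over all genes amounted to 29.8% higher and 6.30% lower with Setd2KO in PD, 20.9% and 21.8% in RS, and 36% and 46.7% in RS WT against PD WT, and the counts that follow are read against these shares. Of 18 tested genes for piRNA precursor transcription and processing, 8 were higher and 0 lower in PD Setd2KO, 6 higher and 0 lower in RS Setd2KO, and 1 higher and 15 lower in RS WT against PD WT. Their median changes were 0.35, 0.12 and −1.74, beside 0.19, 0.02 and −0.21 over all genes. With quantile normalization 5 were higher and 1 lower in PD. The largest rises were those of Asz1, a germ granule protein gene, by 0.76 in PD (limma, adjusted p = 0.0016), and Mybl1, the transcription factor of pachytene piRNA precursors, by 1.42 in RS (adjusted p = 6.6e-05). Mybl1 is also 1 of the 4 spermatocyte markers that were higher in RS Setd2KO. Of 24 tested writers, erasers and readers of H3K36 methylation, 7 were higher and 1 lower in PD Setd2KO, 4 higher and 3 lower in RS Setd2KO, and 4 higher and 15 lower in RS WT. The counts of higher genes with Setd2KO lie near the shares over all genes. Smyd2, a lysine methyltransferase gene, rose in PD by 0.62 (adjusted p = 0.0077), and Whsc1l1, another, fell in RS by 0.72 (adjusted p = 0.00025). Their median changes were 0.12, 0.06 and −0.66. The direction of this list in PD flipped with quantile normalization, to 2 higher and 4 lower with a median of −0.06, and in RS upper-quartile scaling gave 9 higher and 3 lower with a median of 0.20. Of 21 genes for transcript 3′ end formation and termination, 7 were higher and 1 lower in PD Setd2KO, 4 higher and 2 lower in RS Setd2KO, and 8 higher and 10 lower in RS WT. Here too the counts of higher genes with Setd2KO lie near the shares over all genes. Cstf2, a cleavage stimulation factor gene, rose by 1.34 in PD (adjusted p = 0.00026), and its autosomal relative Cstf2t rose by 1.01 in RS (adjusted p = 0.00027). The medians were 0.20, 0.09 and −0.27. With upper-quartile scaling 8 of these were higher and 1 lower in RS Setd2KO, and 9 were higher and 9 lower in RS WT.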

How the data were processed

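The authors deposited FPKM values for 20626 genes in 2 RNA libraries of each of 4 groups. The submitters' processing notes name CASAVA, TopHat2, Cufflinks and Cuffdiff and build mm9, and per the labels the RNA was polyadenylated and the kit directional. The authors also deposited 1 H3K36me3 peak list per group, with a score for each peak of at least 50. The peak names are those of MACS, and the notes name Bowtie and bedtools. Per the labels spike-in chromatin was added, but no source used here says whether the lists were scaled by it. Inputs were not analysed here.

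The far peaks were chosen by their place in the deposited WT lists and tables, and the members and gene lists were chosen with earlier results of these data known. Overlap means at least 1 base. A gap is the stretch between 2 neighbouring deposited genes, matched by symbol to RefSeq (GRCm38.p6) with no coordinates converted. Genes that averaged 1 FPKM or more in some group were fitted as log2(FPKM + 1) with limma 3.58.1 (R 4.3.3) with a trend and 1 mean for each of the 4 groups (4 residual and 6.92 prior degrees of freedom), and p-values were adjusted by Benjamini-Hochberg over 11452 genes. The fit was first tested on simulated data. Depth recovered from the steps of low FPKM values was 50.8 to 84.9 megareads per library.

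Named were the 8 widest, the 8 farthest and the 5 highest-scoring far peaks, the 5 runs with the most peaks, up to 5 per cell type with most Setd2KO cover and those at the limits. Genes named were their neighbours, Setd2 and the nearest genes with the largest called changes, 8 per direction for Setd2KO and 5 otherwise, with at least 5 FPKM in the higher group and, except for the difference of effects, no overlap of libraries. Genes with clone names are not printed. The gaps and coding genes of RefSeq, the promoters and the microRNAs were chosen after their values were seen. The alternatives were other limits on distance, width, overlap and score, another pseudocount, no filter, upper-quartile and quantile scaling, a replicate block and leaving out each library. Results that need a few withheld genes are not reported here.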

Additional observations from a re-analysis of the deposited data

Results flagged for a closer look

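The Setd2KO effects of 9 named nearest genes differed between RS and PD in the limma test of the difference itself, and each is given as the effect in RS minus that in PD in log2(FPKM + 1), with its SE. Ndc80 differed by 1.65 ± 0.22 (adjusted p = 0.00048), with 17.9 and 13.1 FPKM in RS Setd2KO against 4.44 and 3.98 FPKM in RS WT, while its PD libraries of both genotypes lay between 13.6 and 15.9 FPKM. Gsn differed by 1.63 ± 0.22 (adjusted p = 0.00049), and its intervals differ between tables. Zbtb42, a zinc finger gene, differed by 1.38 ± 0.20 (adjusted p = 0.00066), with 11.1 and 9.88 FPKM in RS Setd2KO against 4.45 and 5.85 FPKM in RS WT, and 13.8 and 14.3 FPKM in PD Setd2KO against 19.8 and 19.9 FPKM in PD WT. Cd24a differed by 1.31 ± 0.16 (adjusted p = 0.00039) and Arc by 1.29 ± 0.25 (adjusted p = 0.0026). Tmigd3 differed by −2.03 ± 0.26 (adjusted p = 0.00040), with 27.7 and 38.4 FPKM in RS Setd2KO against 59.8 and 51.3 FPKM in RS WT, and 3.93 and 2.68 FPKM in PD Setd2KO against 0.70 and 0.81 FPKM in PD WT. Zp3r differed by −2.00 ± 0.35 (adjusted p = 0.0017), Tex29 by −1.99 ± 0.27 (adjusted p = 0.00049) and Sun5 by −1.96 ± 0.34 (adjusted p = 0.0016). In the last 4 genes all RS libraries lay above all PD libraries, and round spermatid markers were higher in PD Setd2KO for 7 of 9 genes, whose part was not tested.

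The same limma test called 24 further genes described above, for which the effect of Setd2KO in RS minus that in PD is given in the same way. Among the nearest genes with a higher effect in RS, the 2 effects differed for Rhcg by 1.20 ± 0.20 (adjusted p = 0.0012), Gng10 by 1.14 ± 0.22 (adjusted p = 0.0028), Fgf12 by 1.11 ± 0.13 (adjusted p = 0.00028), Zfp800 by 0.93 ± 0.22 (adjusted p = 0.0077), Rnf6 by 0.62 ± 0.20 (adjusted p = 0.037) and Cyp2d26 by 0.55 ± 0.18 (adjusted p = 0.038). With a lower effect in RS, they differed for Dnajc5b by −1.83 ± 0.36 (adjusted p = 0.0031), Pigg by −1.83 ± 0.17 (adjusted p = 0.00010), Adgb by −1.71 ± 0.24 (adjusted p = 0.00061), Ccdc91 by −1.69 ± 0.21 (adjusted p = 0.00034), Abhd16b by −1.37 ± 0.16 (adjusted p = 0.00028), Dlgap4 by −1.34 ± 0.15 (adjusted p = 0.00024), Tnp1 by −1.29 ± 0.27 (adjusted p = 0.0043) and Prm1 by −1.22 ± 0.25 (adjusted p = 0.0037). Of the other genes with a higher effect in RS, the effects differed for Setd2 by 0.74 ± 0.22 (adjusted p = 0.021), Ugcg by 0.91 ± 0.21 (adjusted p = 0.0070), Mybl1 by 1.27 ± 0.23 (adjusted p = 0.0021) and Cstf2t by 0.73 ± 0.20 (adjusted p = 0.017). With a lower effect in RS, they differed for G6pd2 by −1.34 ± 0.28 (adjusted p = 0.0043), Cstf2 by −1.20 ± 0.22 (adjusted p = 0.0020), Izumo3 by −1.16 ± 0.28 (adjusted p = 0.0089), Smyd2 by −1.13 ± 0.20 (adjusted p = 0.0021), Asz1 by −1.04 ± 0.18 (adjusted p = 0.0018) and Whsc1l1 by −0.65 ± 0.14 (adjusted p = 0.0050). The effects of Asz1 and Smyd2 had opposite signs in the 2 cell types, at −0.27 in RS and 0.76 in PD for Asz1 and at −0.51 in RS and 0.62 in PD for Smyd2.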

How the results depend on the processing

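With a distance of over 20000 bases from genes 2707 far peaks were left, and the other limits tried left 2939 to 4381. The shares touched by Setd2KO peaks stayed inside their intervals under the limits for which they were counted, at 0.161% to 0.238% in PD and 0.415% to 0.578% in RS. These limits were a distance of over 20000 bases, more cover by RS WT peaks, a higher PD WT score and a longer Setd2KO overlap. The shares were not counted with the other distance, the gene intervals of all 4 tables or no width limit. Among nearest genes, quantile normalization gave 148 higher and 160 lower in PD Setd2KO, and 236 higher and 181 lower effects in RS than in PD. Upper-quartile scaling gave 418 higher in RS Setd2KO and 200 higher effects in RS, and the all-gene medians of the 4 contrasts moved by up to 0.22. Nearest genes within 20000 bases gave 208 higher in PD Setd2KO and 207 higher in RS WT than in PD WT, as fewer genes were counted. Leaving out a library gave 168 to 412 higher and 30 to 84 lower in PD Setd2KO, 124 to 328 higher and 116 to 232 lower in RS Setd2KO, 300 to 350 higher and 519 to 600 lower in RS WT, and 54 to 155 higher and 189 to 321 lower effects in RS. Where it left a group with 1 library, that library was taken to vary like the other groups. The cause of the other moves was not tested.

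The deviations of same-numbered libraries of different groups had correlations of −0.31 to 0.07. With 2 libraries per group, the sign of such a correlation depends on which library has which number. Libraries of unlike number therefore have correlations of the same size with the opposite sign. The largest in size, −0.31, was that of PD Setd2KO and RS Setd2KO, and what lies behind it was not tested. A replicate block gave 304 higher and 53 lower in PD Setd2KO and 240 and 197 in RS Setd2KO. All named nearest genes kept their call under another pseudocount, no filter, both scalings and the block, and Prm1 in PD lost it without the second PD Setd2KO library. With 1 peak list per group, no spread between ChIP replicates could be had.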
